A study of Mus musculus with 6 samples.

Results

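The genes described here are the core of the hypoxia-inducible factor 1 (HIF1) axis, measured in mouse Th17 cells with and without a T cell deletion labelled as pyruvate dehydrogenase (PDH). They are 10 genes chosen by name: Hif1a and Arnt, the subunits of HIF1; Egln1, Egln2 and Egln3, the HIF prolyl hydroxylases; Vhl and Hif1an, a destruction factor and an asparaginyl hydroxylase; and Bnip3, Bnip3l and Higd1a, mitochondrial proteins known as HIF1 targets. All 10 were found among the 15452 genes of the count table, and all 10 passed the filter on low counts, as did 15361 genes in all. Naive CD4+ T cells from spleen and lymph nodes were cultured for 3 days with plate-bound anti-CD3, anti-CD28, IL-6, TGFβ and anti-IFNγ, and messenger RNA was sequenced from 3 libraries per genotype. WT cells carried the floxed alleles without Cre. Knockout cells carried the floxed alleles and CD4 Cre, which is active in T cells from the thymus onward, so Cre and the deletion cannot be told apart.

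HIF1 is a dimer whose alpha subunit is made and destroyed continuously when oxygen is present. The prolyl hydroxylases use oxygen, iron and the tricarboxylic acid cycle metabolite 2-oxoglutarate to mark HIF1α, the mark is bound by VHL, and the ubiquitin ligase that VHL belongs to sends HIF1α to the proteasome. The asparaginyl hydroxylase encoded by Hif1an blocks the binding of coactivators instead. In Th17 cells HIF1α is known to act with RORγt and to drive glycolytic genes. Because HIF1α is controlled mainly as a protein, transcript counts describe the supply of its messenger RNA and not its activity.

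Each library held between 33802154 and 40407124 counts, and a count of 0 would have allowed up to 3 counts, at most 0.0888 CPM. Levels are CPM, counts per 1000000 counts, scaled by TMM factors, shown as mean ± SD (n = 3), and changes are log2 fold changes of knockout over WT ± SE. Adjusted p-values come from edgeR's quasi-likelihood test, adjusted by Benjamini-Hochberg across every tested gene, and a gene is called below 0.05. Whether each replicate was a separate mouse is not stated in the labels, so the spread behind the p-values is that between these libraries and may be technical. The library of knockout replicate 2 held 4.95% of its counts on a single entry left without a symbol here, against 0.0796 to 0.215% in the others. Summed T cell markers (7 of 7 in the table) ran from 2480 to 2550 CPM in WT and 2040 to 2250 CPM in knockout, and summed Th17 markers (7 of 7) from 925 to 1230 and 607 to 773 CPM, both by library totals. Both sums were lower in every knockout library than in any WT library, and their part in the results was not tested. A sum does not give the direction of each gene. Rora, a Th17 marker, had 74.0 to 105 TMM-scaled CPM in WT and 103 to 113 in knockout, with overlap (0.29, adjusted p = 0.0745, not called). Summed B cell markers (6 of 6) were 2.34 to 3.17 CPM in WT replicates 1 and 3 and knockout replicate 1, and 22.9, 42.8 and 71.8 CPM in WT replicate 2 and knockout replicates 2 and 3. Summed myeloid markers (5 of 6) were 6.71 to 19.2 CPM in WT and 2.24 to 5.3 CPM in knockout. Summed NK cell markers (2 of 4) were 5.69 to 8.32 and 4.41 to 5.2 CPM. Both of these low sums were also lower in every knockout library, and their part was not tested. Summed CD8 T cell markers (2 of 2) overlapped, at 8.68 to 11.3 and 5.58 to 14.9 CPM. Sample titles spell the floxed locus PHD, an abbreviation also used for prolyl hydroxylases, while genotype labels spell it PDH. The transcripts of all 3 prolyl hydroxylase genes remained in knockout, the lowest fold being 0.573 of WT for Egln3. Gene-level counts of these 3 genes cannot tell which locus was floxed, and PDH subunit genes were not read here.

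Of the 10 genes, 7 fell in knockout, 1 rose and 2 were not called. Across all tested genes 47.6% were called, 24.5% lower and 23.1% higher, so the called share of these 10 is to be read against a transcriptome in which nearly as many genes moved as did not. The groups did not overlap in 8 of the 10 genes, against 58.2% of all tested genes. The median log2 fold change of the 10 was -0.40, and that of all tested genes was 0.01. The decreases were steepest in Bnip3 and Hif1a, whose fold changes lay at the 1.33 and 2.02 percentiles of all tested genes, followed by Egln3 (5.42) and Higd1a (9.44). Arnt, Egln2 and Bnip3l fell less, and Hif1an alone rose. In bulk RNA, fewer cells that express a gene and less RNA per cell cannot be told apart. Of all called genes, 3763 of 7311 were lower with the TMM factors and 2927 of 7309 with upper-quartile factors, and under either scaling the same counts of 7 lower and 1 higher held for the 10 genes. No call among the 10 was lost when any single library was left out, while a test by edgeR against a fold change of 1.2 left 4 called. Without the 3 libraries with raised B cell markers only 1 knockout library remained, and the 10 changes kept their direction.

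**Figure D1:**
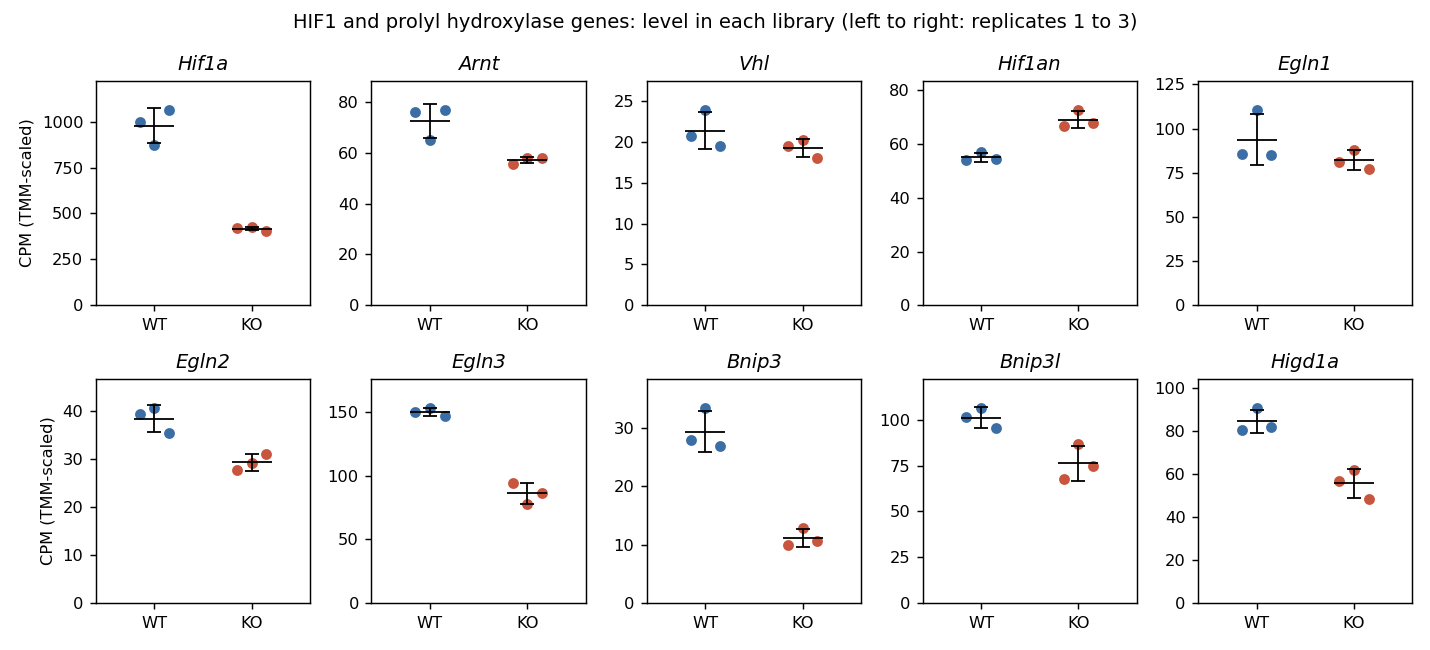
CPM (vertical axes, linear, starting at 0) of the 10 genes in 3 WT and 3 knockout (KO) libraries. Points are libraries, in the order of replicates 1 to 3, and bars are mean ± SD. The groups are separate in 8 panels and overlap for Vhl and Egln1.

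The HIF1 binding core is ACGTG or GCGTG, and the promoters of the 4 genes with the steepest decreases and of Hif1an, the gene that rose, are shown for the place of these letters. Each is the 250 bases before the annotated start, 5′ to 3′ on the strand of the gene, from RefSeq on GRCm38.p6, with every match to ACGTG or GCGTG on either strand in capitals, so that CACGT and CACGC are matches on the opposite strand.
Hif1a, chr12:73907617-73907866, plus strand: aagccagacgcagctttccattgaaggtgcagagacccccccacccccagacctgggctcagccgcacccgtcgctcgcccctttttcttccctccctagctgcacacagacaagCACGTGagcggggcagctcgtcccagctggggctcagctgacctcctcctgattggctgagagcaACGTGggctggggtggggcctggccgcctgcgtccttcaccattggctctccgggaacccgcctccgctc
Bnip3, chr7:138909507-138909756, minus strand: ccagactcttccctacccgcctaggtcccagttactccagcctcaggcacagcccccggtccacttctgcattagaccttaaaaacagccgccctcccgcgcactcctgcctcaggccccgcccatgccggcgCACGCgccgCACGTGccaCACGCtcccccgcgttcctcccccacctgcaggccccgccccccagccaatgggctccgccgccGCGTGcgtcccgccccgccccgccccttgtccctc
Egln3, chr12:54203875-54204124, minus strand: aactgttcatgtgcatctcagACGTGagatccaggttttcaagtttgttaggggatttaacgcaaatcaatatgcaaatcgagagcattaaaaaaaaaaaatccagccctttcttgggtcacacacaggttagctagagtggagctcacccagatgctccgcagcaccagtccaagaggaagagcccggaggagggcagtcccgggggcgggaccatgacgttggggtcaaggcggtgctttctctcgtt
Higd1a, chr9:121857797-121858046, minus strand: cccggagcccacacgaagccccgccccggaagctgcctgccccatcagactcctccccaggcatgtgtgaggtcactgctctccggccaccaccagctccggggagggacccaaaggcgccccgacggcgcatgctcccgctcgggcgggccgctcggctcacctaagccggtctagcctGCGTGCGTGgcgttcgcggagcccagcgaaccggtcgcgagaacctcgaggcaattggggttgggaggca
Hif1an, chr19:44562604-44562853, plus strand: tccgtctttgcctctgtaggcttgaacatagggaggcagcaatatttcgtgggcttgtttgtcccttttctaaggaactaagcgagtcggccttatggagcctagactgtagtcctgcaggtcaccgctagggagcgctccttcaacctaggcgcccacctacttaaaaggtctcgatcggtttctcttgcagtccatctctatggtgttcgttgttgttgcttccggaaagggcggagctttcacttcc
In the Hif1a promoter the 3 matches were all ACGTG, and 2 of them were the opposite strands of one CACGTG, a sequence also bound by MYC and other E-box factors, starting 135 bases before the start. The Bnip3 promoter held the most matches of the members, 5, also around a CACGTG, at 108 bases before the start. Egln3 had a single ACGTG at 229 bases before the start and Higd1a a pair of overlapping GCGTG at 70 and 66 bases, while Hif1an had no match in this window. RefSeq promoters were matched by symbol for 9 of the 10 genes, and Bnip3l had none in the table used. Of these 9, 7 held a match and 5 held ACGTG, where 54.4% and 21.4% of 13350 promoters of genes in the count table did, and 38.6% and 16.6% of all 32851 promoters in the RefSeq table. The units differ, as the 9 are genes, with 10 promoters, and the background shares count promoters (13350 promoters of 10518 genes). A match was present in 6 of 6 lower genes with a promoter and 0 of 1 higher genes, and of the 2 uncalled genes Egln1 had matches and Vhl had none. The lower genes include known HIF1 targets chosen by name, and 1 higher gene cannot show a difference by direction of change. The windows of the 9 genes ran from 48.0 to 86.0% G and C, against a median of 59.2%, and a match of 5 bases in such sequence is a description and not a site of binding.

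Hif1a (ENSMUSG00000021109.14), the oxygen-regulated subunit, had 1001, 873 and 1062.5 CPM in WT replicates 1 to 3 and 422, 425 and 407 CPM in knockout replicates 1 to 3. Every knockout library lay below every WT library, and the knockout libraries were closer together (coefficient of variation 2.35%) than the WT libraries (9.89%). The level fell by 57.3%, from 979 ± 96.8 to 418 ± 9.83 CPM, a log2 fold change of -1.23 ± 0.08 (adjusted p = 1.42e-05). It rested on at least 14348 counts per library. An entry annotated as overlapping Hif1a on the same strand, Gm49321, held 9 to 77 counts, and how reads were divided between the entries was not tested.

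Arnt (ENSMUSG00000015522.19), the constitutive partner also called HIF1β, had 76.4, 65.1 and 76.9 CPM in WT and 55.7, 58.0 and 58.0 CPM in knockout. The groups did not overlap, though WT replicate 2 lay nearer to the knockout libraries than its fellow WT libraries did. Arnt fell from 72.8 ± 6.69 to 57.3 ± 1.31 CPM (-0.35 ± 0.07, adjusted p = 0.00409). It did not pass when tested by edgeR against a fold change of 1.2 (adjusted p = 0.141). The log2 difference between Hif1a and Arnt within a library was 3.75 ± 0.04 in WT and 2.87 ± 0.05 in knockout. These differences of CPM were taken within a library and are not per length. They did not overlap between the groups, and the exact two-sided permutation test gave p = 0.1, the smallest that 20 assignments allow (0.125 adjusted over 5 pairs of related genes).

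Egln3 (ENSMUSG00000035105.6), which encodes the prolyl hydroxylase PHD3 and is itself a known HIF1 target, had 150, 153 and 147 CPM in WT and 94.0, 78.1 and 86.2 CPM in knockout. WT replicates were tight, and all knockout replicates lay well below them. It fell by 42.7%, from 150 ± 3.01 to 86.1 ± 7.98 CPM (-0.80 ± 0.07, adjusted p = 4.14e-05). Egln2 (ENSMUSG00000058709.12), which encodes PHD1, had 39.3, 40.6 and 35.3 CPM in WT and 27.6, 29.2 and 31.0 CPM in knockout. The groups were separate but closer than for Egln3, with a change of -0.39 ± 0.08 (adjusted p = 0.00289, and 0.0698 by edgeR against a fold change of 1.2). Egln1 (ENSMUSG00000031987.7), which encodes PHD2, the main oxygen sensor of most cells, had 85.8, 110 and 85.1 CPM in WT and 80.8, 88.1 and 77.2 CPM in knockout. WT replicate 2 stood above its group and knockout replicate 2 lay within the WT range. Egln1 was not called (-0.19, 95% interval -0.43 to 0.04, adjusted p = 0.157), an interval that leaves room for a moderate decrease or none.

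The 3 prolyl hydroxylase genes were also read as a pool, as a description with no test of the sums and shares. Per kilobase of merged exons, the sum of the 3 genes was 96.2 ± 5.83 CPM per kb in WT and 65.6 ± 1.79 in knockout, with ranges of 91.67 to 102.8 and 64.28 to 67.66. Egln3 made up 56.0 to 60.4% of that sum in WT and 45.6 to 52.2% in knockout, and Egln1 made up 25.4 to 29.9% and 33.1 to 38.1%. The Egln2 share was 13.8 to 14.9% in WT and 14.6 to 17.0% in knockout, with overlap. Hif1a per kilobase was 1.44 to 1.97 times the summed hydroxylases in WT and 1.06 to 1.12 times in knockout, without overlap. With the longest coding transcript as the length, Egln3 held 53.5 to 57.8% and 43.3 to 49.8%. The log2 difference of Egln1 to Egln3 went from -0.69 ± 0.19 in WT to -0.07 ± 0.21 in knockout without overlap (exact two-sided permutation p = 0.1, 0.125 adjusted), and that of Egln2 to Egln3 from -1.97 ± 0.08 to -1.55 ± 0.19, also without overlap and with the same p. That of Egln1 to Egln2 was 1.28 ± 0.16 and 1.48 ± 0.15 with overlapping groups (exact permutation p = 0.2).

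**Figure D2:**
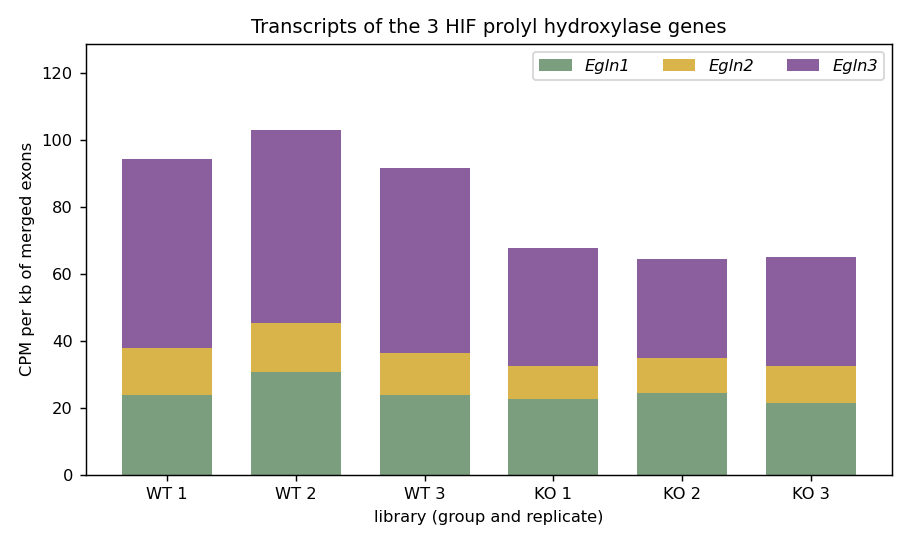
Stacked CPM per kb of merged exons (vertical axis, linear, starting at 0) of Egln1, Egln2 and Egln3 in each library, WT 1 to 3 and KO 1 to 3. The Egln3 segment shrinks from 55.36 to 57.61 in the WT libraries to 29.32 to 35.32 in the knockout libraries, while the Egln1 segments stay within 21.48 to 30.70.

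Vhl and Hif1an act after or beside the prolyl hydroxylases. Vhl (ENSMUSG00000033933.14), the substrate receptor of the ligase, had 20.7, 23.9 and 19.5 CPM in WT and 19.5, 20.2 and 18.1 CPM in knockout, with overlapping groups. It was not called (-0.15, 95% interval -0.36 to 0.06, adjusted p = 0.22). Hif1an (ENSMUSG00000036450.5), also known as FIH, had 54.0, 57.1 and 54.3 CPM in WT and 66.8, 72.6 and 68.0 CPM in knockout. All 3 knockout libraries lay above all 3 WT libraries. Hif1an rose from 55.2 ± 1.69 to 69.1 ± 3.08 CPM (0.33 ± 0.06, adjusted p = 0.00194), but did not pass by edgeR against a fold change of 1.2 (adjusted p = 0.157). It was the single gene of the 10 that rose while its substrate transcript, Hif1a, fell.

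Bnip3 and Bnip3l encode related outer mitochondrial membrane proteins that act as receptors for mitophagy, the removal of mitochondria by autophagy. Bnip3 (ENSMUSG00000078566.9) had 27.9, 33.4 and 26.8 CPM in WT and 9.85, 12.8 and 10.7 CPM in knockout. The highest knockout library held less than the lowest WT library by a wide margin, and the gene fell by 62.2% (-1.41 ± 0.12, adjusted p = 3.58e-05), the steepest change of the 10. Its 376 counts in knockout replicate 3 were the lowest of any member in any library, where counting alone gives a coefficient of variation of 5.16%. Bnip3l (ENSMUSG00000022051.16), also called NIX, had 102, 106 and 95.4 CPM in WT and 67.7, 86.6 and 74.9 CPM in knockout. The groups were separate, with knockout replicate 2 nearest to WT, and the change was -0.41 ± 0.09 (adjusted p = 0.00464, and 0.0739 by edgeR against a fold change of 1.2). Per kilobase, Bnip3 made up 31.8 to 34.8% of the pair in WT and 19.5 to 20.1% in knockout. The within-library log2 difference of Bnip3 to Bnip3l was -1.79 ± 0.10 in WT and -2.78 ± 0.03 in knockout, without overlap (exact two-sided permutation p = 0.1, the smallest possible, 0.125 adjusted). A pseudogene of Bnip3l and one of Vhl are annotated, and reads shared with them could be split in the authors' quantification.

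Higd1a (ENSMUSG00000038412.9), an inner mitochondrial membrane protein that binds respiratory complexes, had 80.4, 90.6 and 81.9 CPM in WT and 56.8, 61.6 and 48.4 CPM in knockout. No library crossed over, and the level fell by 34.1% (-0.60 ± 0.09, adjusted p = 0.000614). Its relative Higd2a, a respiratory complex assembly factor, fell by a similar amount: 39.5, 35.7 and 35.6 CPM in WT against 22.4, 25.8 and 24.5 CPM in knockout (-0.61 ± 0.08, adjusted p = 0.000318). Among 11 tested mitophagy receptors and adaptors besides the BNIP3 pair, 3 fell and 1 rose, 7 had no call, and the median was -0.06, a called share of 36.4% against 47.6% of all tested genes. Phb2, a prohibitin and inner membrane mitophagy receptor, was at -0.51, Nipsnap1 at -0.55 and Fkbp8 at -0.35 (adjusted p = 0.000324, 0.000609 and 0.00496). Of these 3, Fkbp8 did not pass by edgeR against a fold change of 1.2 (adjusted p = 0.146). Calcoco1, an autophagy receptor, was called higher (0.43, adjusted p = 0.0493) with overlapping groups. Leaving out any library except knockout replicate 1 ended that call (adjusted p between 0.0681 and 0.1615), and the value was -0.013 without the 3 libraries with raised B cell markers.

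**Figure D3:**
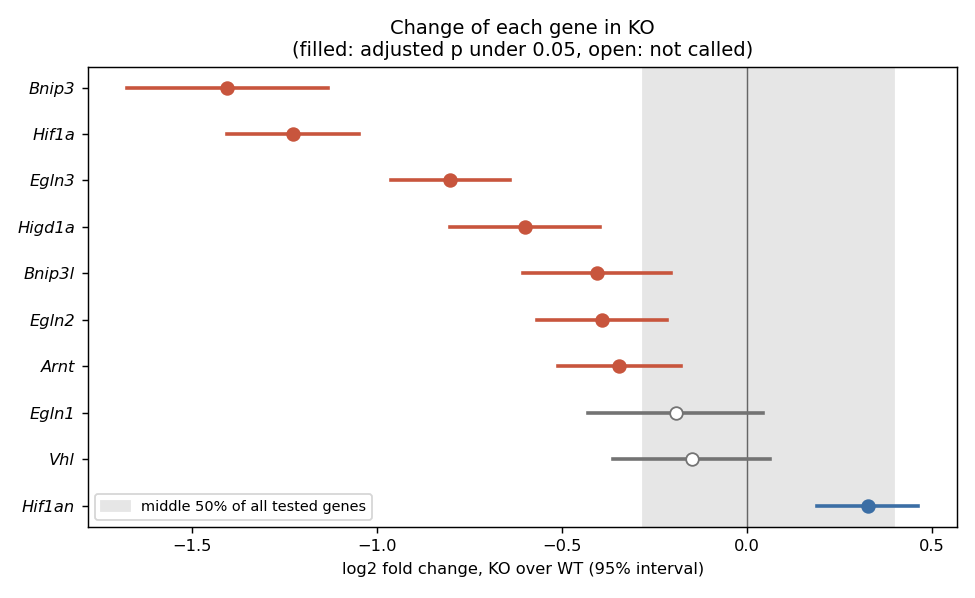
Log2 fold change of knockout over WT (horizontal axis) of the 10 genes with 95% intervals from the edgeR fit. Filled points were called at an adjusted p of 0.05, open points were not, and the grey band holds the middle 50% of all tested genes, from -0.28 to 0.40. Bnip3, Hif1a, Egln3 and Higd1a have intervals wholly below that band.

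Levels were also compared between the 10 genes per kilobase of merged exons. In WT, Hif1a stood first at 166 ± 16.4 CPM per kb and Egln3 second at 56.4 ± 1.13. Higd1a (27.7 ± 1.81), Bnip3l (26.2 ± 1.45) and Egln1 (26.1 ± 3.99) followed and overlapped between libraries. Egln2 (13.7 ± 0.985) and Bnip3 (13.0 ± 1.56) also overlapped, as did Arnt (9.09 ± 0.835) and Hif1an (8.35 ± 0.256), and Vhl was lowest at 7.13 ± 0.750. In knockout, Hif1a (70.8 ± 1.67) and Egln3 (32.3 ± 3.00) remained first and second. Egln1 (22.8 ± 1.55) followed and overlapped with Bnip3l (19.8 ± 2.48), which overlapped with Higd1a (18.3 ± 2.20). Hif1an and Egln2 (both 10.5, SD 0.466 and 0.598) could not be ordered, Arnt was at 7.15 ± 0.163 and Vhl at 6.43 ± 0.360. Bnip3 went from the seventh place in WT to the tenth in knockout, at 4.90 ± 0.666, below every other member in every knockout library. It was also the lowest in knockout with the longest coding transcript as the length. The middle of the order, by group means, changed with that length. In knockout, Egln1 (22.8) then stood below Higd1a (24.9) and Bnip3l (23.4), and Hif1an (11.2) below Egln2 (13.9) and Arnt (13.2). In WT, Arnt (16.8) then stood beside Bnip3 (16.7) and above Hif1an (8.9). Lengths are from GENCODE M21. Only 18 of the 15452 deposited IDs carried the version used for matching symbols, so the annotation behind the counts was another release.

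Among 14 other HIF subunits and control genes, 3 rose and 4 fell, 7 had no call, and the median was 0.00. The called share was 50%, near the 47.6% of all tested genes. Cul2, the cullin scaffold of the VHL ligase, had 118, 105 and 117 CPM in WT and 77.8, 74.9 and 76.4 CPM in knockout (-0.57 ± 0.06, adjusted p = 0.000118). Eloc, the elongin C adaptor, was at -0.42 (adjusted p = 0.001), with 89.1 to 101 CPM in WT and 67.5 to 74.7 CPM in knockout. Elob, the elongin B adaptor, was also called lower (-0.43, adjusted p = 0.00259), while Rbx1, the RING subunit of the ligase, was not called (-0.04, adjusted p = 0.657), nor was Vhl itself. Differences between these subunits were not tested. Crebbp, a coactivator that HIF1α recruits and whose access the FIH mark blocks, rose from 47.5 to 51.1 CPM in WT to 72.6 to 86.1 CPM in knockout (0.68 ± 0.07, adjusted p = 0.000102). Arnt2, a paralog of Arnt, was called higher (adjusted p = 0.00221) on only 7, 13 and 6 counts in WT and 34, 25 and 29 counts in knockout.

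Genes of other prolyl and lysyl hydroxylase families were read, together with P4hb, the partner subunit of the collagen prolyl hydroxylases. Most of them share the 2-oxoglutarate-dependent chemistry of the Egln enzymes. Of 12 tested, 2 fell and 1 rose, 9 had no call, and the median was -0.16, a called share of 25% against 47.6% of all tested genes. Plod3, a collagen lysyl hydroxylase, had 44.4, 43.2 and 43.98 CPM in WT and 25.3, 25.2 and 25.2 CPM in knockout (-0.80 ± 0.06, adjusted p = 2.26e-05). P4ha1, a collagen prolyl hydroxylase and known HIF1 target, was at -0.50 (adjusted p = 0.000925), and Plod2, another known HIF1 target, rose by 0.46 (adjusted p = 0.00199). The calls thus ran in both directions within this list.

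Known HIF1 targets were read as 2 lists. Of 17 genes of glycolysis, lactate export and pyruvate control, 15 fell and 0 rose, 2 had no call, and the median was -0.54, where 24.5% of all tested genes were called lower and 23.1% higher. Aldoa, Hk1, Eno1 and Gpi1 had the smallest p-values with changes of -0.94, -0.70, -0.76 and -0.51 (adjusted p from 2.71e-05 to 0.000194). Slc16a3, the lactate exporter MCT4, was singled out after its values were seen, because its decrease was the largest of the list. It had 106, 128 and 95.1 CPM in WT and at most 32.5 CPM in knockout (-2.07 ± 0.20, adjusted p = 0.000606). Of 25 further known targets, 4 fell and 3 rose, 18 had no call, and the median was -0.17. Their called share was 28%, against 47.6% of all tested genes. This second list lies mostly outside glycolysis but includes Pfkfb4, a relative of the glycolytic regulator Pfkfb3 of the first list, which was not called (-0.19, adjusted p = 0.144). Mxi1, a MYC antagonist, fell from 42.0 to 43.4 CPM in WT to 27.1 to 32.6 CPM in knockout (-0.50 ± 0.08, adjusted p = 0.000833). Ddit4, an inhibitor of mTORC1 also called REDD1, rose from 185 to 194 CPM to 227 to 252 CPM (0.35 ± 0.06, adjusted p = 0.00119), and Kdm4b, a histone demethylase, rose by 0.30 (adjusted p = 0.00536). Neither Ddit4 nor Kdm4b passed by edgeR against a fold change of 1.2 (adjusted p = 0.09 and 0.297). Adm, adrenomedullin, was called higher (adjusted p = 0.0032) on 2, 1 and 4 counts in WT and 12, 26 and 12 counts in knockout. Without the 3 libraries with raised B cell markers, which leaves 1 knockout library, the calls of Adm and Kdm4b did not hold. The count of called targets of the second list was 11 (8 lower, 3 higher) without WT replicate 2. These lists were compiled from background knowledge with earlier results known, and the difference between them was not tested.

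**Figure D4:**
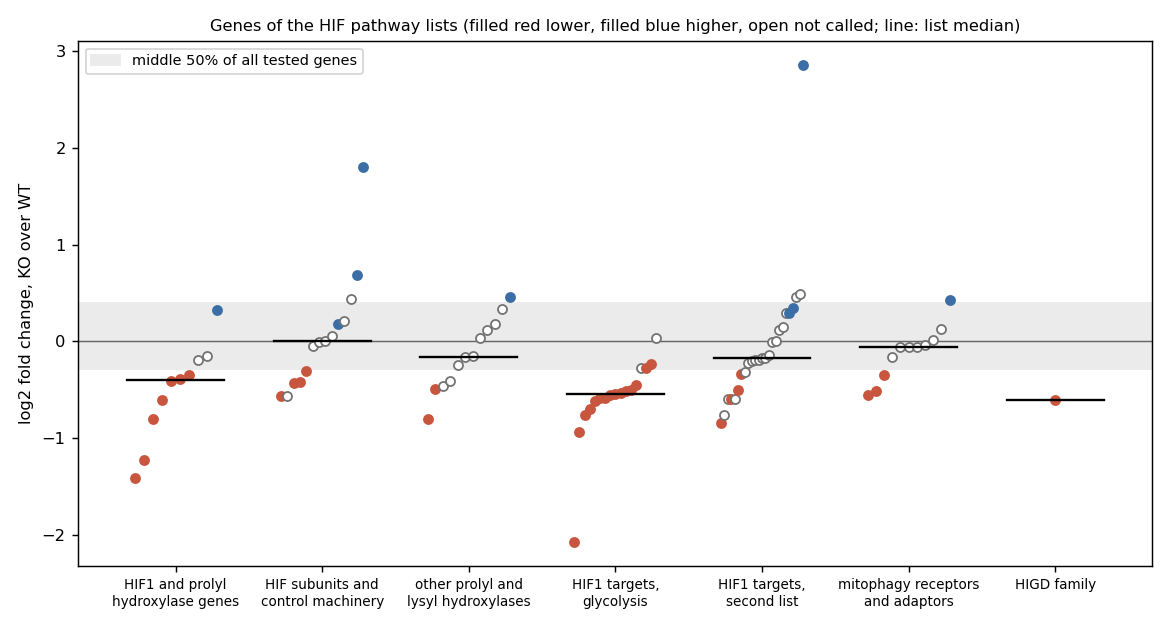
Log2 fold change of knockout over WT (vertical axis) of every tested gene in the HIF1 and prolyl hydroxylase group and 6 related lists. Each point is a gene (red lower, blue higher, open not called), black lines are list medians and the grey band is the middle 50% of all tested genes. The glycolytic targets lie mostly below the band with a median of -0.54, and the other targets scatter on both sides of 0 with a median of -0.17.

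The genes whose profile over the 6 libraries was most like that of Hif1a were found by the root mean square difference of log2 CPM, each gene centred on its own mean, among 11957 other genes with a mean of at least 50 counts. The closest were Bambi, a TGFβ pseudoreceptor (0.04), Phospho1, a phosphatase (0.06), Pif1, a DNA helicase (0.06), Gpr65, a proton-sensing receptor (0.06), and Galnt3, a glycosyltransferase (0.07). Their log2 fold changes ran from -1.27 to -1.16, close to that of Hif1a. Bambi and Phospho1 were low, at means of 3.94 and 3.62 CPM in WT and 1.63 and 1.53 CPM in knockout. Hif1a had means of 979 CPM in WT and 418 CPM in knockout. The part of counting error in the order of such low genes was not tested. Of the other members, Bnip3 stood at rank 286 and Egln3 at rank 355 in this order, Higd1a at 941, and Hif1an at 9384. The difference between the groups is part of the profile, so genes with a fold change near that of Hif1a score as alike.

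**Figure D5:**
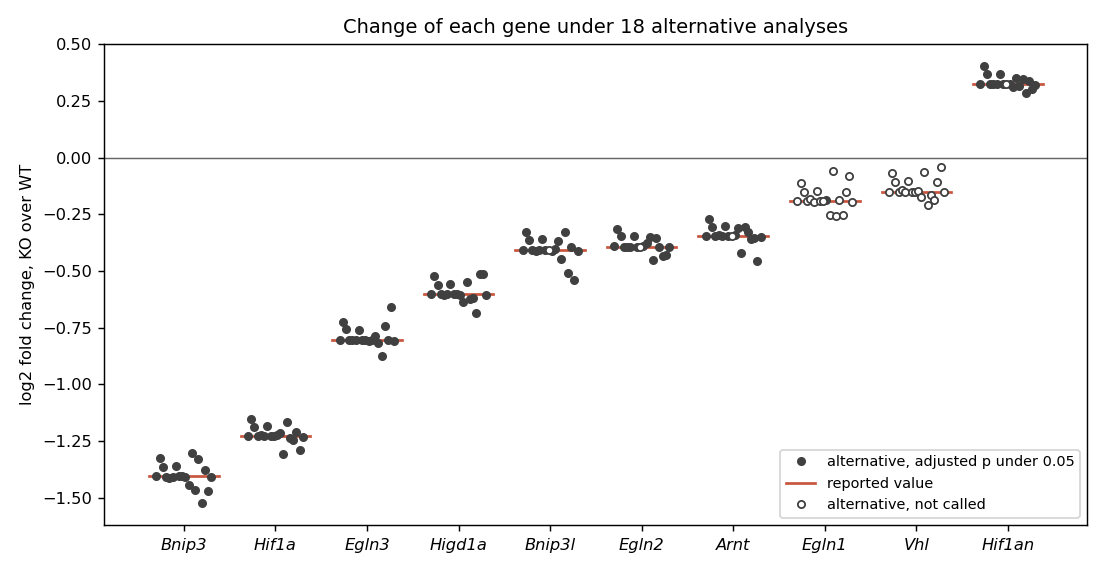
Log2 fold change of each of the 10 genes (vertical axis) under 18 alternative analyses, which change the scaling, the test, the filter, the replicate block or the libraries used. Filled points were called at an adjusted p of 0.05, open points were not, and red lines are the reported values. No point crosses 0, and Egln1 and Vhl stay closest to it, from -0.26 to -0.06 and from -0.21 to -0.04.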

How the data were processed

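RNA-seq libraries of 3 WT and 3 knockout Th17 cultures were grouped by the sample labels. The authors deposited expected counts, which are whole numbers and needed no rounding. Salmon, DESeq2 and DESeq appear in the submitters' processing notes, with neither version nor role. The genome build is not given in the sources used here, nor is the annotation. The kit was stranded, per the labels. Every row had 10 counts or more in 3 or more libraries. Symbols were matched on the unversioned ID to GENCODE M21 (15138 of 15452 IDs). The list gene Ero1a is spelled Ero1l there, and none of the 5 erythroid markers looked up was in the count table.

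Counts were analysed with edgeR 4.0.16 in R 4.3.3: filterByExpr (91 genes removed), TMM factors, a robust quasi-likelihood model of genotype alone, Benjamini-Hochberg adjustment and a threshold of 0.05. The SE is the log2 fold change over the square root of F. Pairs of related genes were compared by exact permutation on log2 CPM (prior count 2). No libraries of the same genotype were alike enough to be one library deposited again (chi-square per degree of freedom at least 28.15). Libraries of different genotypes were not compared in this way. The fit was tested on simulated counts. Alternatives used DESeq2 1.42.0 and limma 3.58.1 (voom), other scalings, filters and libraries. Intervals and floors cover counting error only where they concern counts.

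All 10 members are named. From each related list the up to 4 called genes with the smallest p are named, and the 5 genes most like Hif1a. Slc16a3 was chosen after its values were seen. Elob, Rbx1, Pfkfb4 and Rora were also named outside this rule. The members and lists were chosen with earlier results of these data known. Figures were drawn with matplotlib 3.10.9.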

Additional observations from a re-analysis of the deposited data

How the results depend on the processing

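Each count was recomputed under 18 alternatives. For the 10 members, 175 of 180 recomputed changes kept their direction and side of the threshold, and none reversed. A test against a fold change of 1.2 by edgeR ended the calls of Arnt, Hif1an, Egln2 and Bnip3l (log2 fold changes -0.35, 0.33, -0.39 and -0.41, adjusted p = 0.141, 0.157, 0.0698 and 0.0739), which left 4 members called, and 3981 genes in all, 4 HIF1 targets of the second list, mostly outside glycolysis, and 2 mitophagy genes. By construction that test asks for larger changes. With the replicate number as a block, Egln1 was called (-0.18, adjusted p = 0.0477) and 12 targets of the second list were called, and no other member's call changed. Same-numbered libraries did not deviate together (correlations of -0.098, 0.093 and -0.259), and not every library correlated best with its own number, so the numbers are not taken as pairs. When each library was left out in turn, 8 members were called each time, all called genes numbered from 5524 to 6961, and the called targets of the second list numbered from 7 to 11, the highest without WT replicate 2. The cause was not tested. For 26 other named genes, which leave out Elob, Rbx1, Pfkfb4 and Rora, 451 of 466 recomputed changes kept their direction and side of the threshold. A call was lost in 14, and 1 value reversed, that of Calcoco1. It was -0.013 without the 3 libraries with raised B cell markers, where the knockout group holds 1 library that is assumed to vary like WT. The differences between related members kept their direction in all 9 alternatives, none of which could reach p under 0.05. In the block version of these, the exact sign-flip test over 3 pairs cannot go below 0.25. Depth limits Arnt2 and Adm, which hold 34 counts or fewer in any library.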
